A study of Mus musculus with 16 samples.

Results

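The 42 genes described here are a fixed list of mitosis (G2/M) genes, and all 42 were found by symbol among the 31053 genes of the lung and MLN feature table and among the 32285 genes of the medLN and MLN table. They were sorted by the role of their protein into 8 groups. The groups are 7 cyclins, CDK1 partners and mitotic kinases, 3 factors of the anaphase-promoting complex and of ubiquitin ligases, 3 subunits of the chromosomal passenger complex, 4 spindle checkpoint genes, 6 centromere and kinetochore genes, 6 condensin and chromosome structure genes, 6 spindle motors or microtubule-associated proteins and 7 genes of the central spindle and of cytokinesis. Their UMIs (unique molecular identifiers, each marking 1 captured transcript) were followed across samples in all cells and in the cells with at least 1 UMI of Mki67, called Mki67-positive cells below.

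All samples were CD4+ cells of IL-4eGFP reporter mice (4get, C57BL/6), taken 10 days after infection with 500 larvae of the hookworm model Nippostrongylus brasiliensis. The 4get allele reports activity of the Il4 locus and marks cells licensed for IL-4 expression, so that IL-4eGFP+ cells need not be terminal Th2 cells. In the lung and MLN run, IL-4eGFP+ cells of perfused lung and of mesenteric lymph node (MLN) came from 2 mice aged 13 weeks, with 1 library per organ and mouse, named lung 1, lung 2, MLN 1 and MLN 2, and the lung cells could still include some from blood vessels. In the medLN and MLN run, cells of the mediastinal lymph node (medLN), which drains the lung, and of the MLN of 2 other mice aged 10 weeks carried hashtag antibodies for organ and mouse, and the sorted IL-4eGFP+ cells and IL-4eGFP- cells each formed 1 library, which gave 8 hashtag samples. Uninfected mice were not analysed here.

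During G2 and mitosis, CDK1 with cyclins A and B drives chromosome condensation and spindle assembly, the checkpoint kinases hold the anaphase-promoting complex until every kinetochore is attached, and the passenger complex, central spindle kinesins and RhoA regulators then divide the cell. Most genes of this program are repressed outside the cycle by DREAM, a complex bound at CHR elements (cell cycle genes homology regions), and are activated at the same sites by B-MYB and FOXM1, commonly together with NF-Y bound at CCAAT boxes. CD4 T cells divide in lymph nodes after priming, and Ki-67, the product of Mki67 that coats mitotic chromosomes, is a common marker of cycling cells.

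After filtering, 4714 cells of the lung and MLN run and 16748 cells of the medLN and MLN run were kept, with 2798232 to 14512767 UMIs per sample. Levels are given as CPM, the UMIs of a gene scaled so that those of all genes in the cells of a sample sum to the same total. They were not divided by transcript length, so each gene is compared between samples. Where genes were picked by their mean CPM, this served to choose examples, and no order of levels between genes is read from it. T cell markers (Cd3d, Cd3e, Cd3g, Cd4, Lck) summed to 3704 to 5212 CPM in the 12 samples. B cell and plasma cell markers summed to 0.357 to 3.79 CPM in the lung and MLN libraries and to 24.3 to 166 CPM in the hashtag samples. Pancreas markers reached 98.7 CPM in MLN 2 of the lung and MLN run and at most 2.69 CPM in the other 3 libraries of that run. The hashtag samples of a gate shared 1 library, and both gates had 147 cell barcodes in common. Since each gate was 1 library, gate and library cannot be told apart in any comparison of the gates. In sums over all cells of a sample, fewer cells with a transcript and less transcript per cell cannot be told apart.

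Promoters are shown first because shared letters are a property of the genes that the list did not use. For 36 of the 42 genes a RefSeq promoter window (GRCm38.p6, 250 bases before to 50 after a gene start) was at hand. The CHR letters TTTGAA or TTCGAA, read on both strands, were in the window of 30 of the 36 genes (83.3%) and in 21.7% of the 27025 genes with a window. CCAAT, on both strands, was in 29 of them (80.6%) against 41.1% of all genes, and both motifs were in 26 (72.2%) against 8.61%. The E2F letters TTTGGCGC or TTTCGCGC, which are typical of S phase genes, were found for 2 genes (5.56%), Cdk1 and Ncapd2, against 0.929% of all genes. The windows of Birc5, Ccnb1, Cenpe, Cks2, Nuf2 and Nusap1 held no CHR letters. No match shows a bound factor. The 250 bases before the start of 4 CHR-bearing genes, picked by mean CPM, follow in the direction of transcription, with the CHR and CCAAT letters of either strand in capitals.
Bub3 promoter, chr7:131560120-131560369, plus strand: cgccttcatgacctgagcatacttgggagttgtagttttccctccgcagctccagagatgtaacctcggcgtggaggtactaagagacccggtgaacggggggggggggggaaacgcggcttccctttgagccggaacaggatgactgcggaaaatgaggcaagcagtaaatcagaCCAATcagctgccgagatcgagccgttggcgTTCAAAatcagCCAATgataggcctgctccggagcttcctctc
Mki67 promoter, chr7:135716380-135716629, minus strand: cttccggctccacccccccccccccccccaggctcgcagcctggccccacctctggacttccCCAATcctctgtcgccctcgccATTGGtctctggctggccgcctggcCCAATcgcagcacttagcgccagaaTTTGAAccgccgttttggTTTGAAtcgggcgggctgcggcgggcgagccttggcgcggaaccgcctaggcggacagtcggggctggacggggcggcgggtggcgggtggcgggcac
Top2a promoter, chr11:99024190-99024439, minus strand: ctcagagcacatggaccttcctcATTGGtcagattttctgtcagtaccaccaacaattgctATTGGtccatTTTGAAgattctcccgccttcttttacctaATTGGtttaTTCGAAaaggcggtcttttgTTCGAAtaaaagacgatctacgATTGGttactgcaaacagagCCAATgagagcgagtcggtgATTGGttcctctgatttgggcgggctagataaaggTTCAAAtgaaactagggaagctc
Ube2c promoter, chr2:164769679-164769928, plus strand: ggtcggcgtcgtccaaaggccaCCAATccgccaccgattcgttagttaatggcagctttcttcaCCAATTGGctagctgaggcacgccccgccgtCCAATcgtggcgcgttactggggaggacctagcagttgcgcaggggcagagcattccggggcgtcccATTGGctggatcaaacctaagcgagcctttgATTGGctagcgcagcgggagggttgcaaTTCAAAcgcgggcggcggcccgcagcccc
In Mki67 both CHR matches lay 116 and 98 bases before the start, and in Top2a there were 4 CHR and 6 CCAAT matches. Bub3 and Ube2c each had 1 CHR match, 43 and 29 bases before the start. Bub3 had 2 windows with different starts, and its position is counted from the start of the window shown. In Ube2c an uninterrupted CCAATTGG counts as 2 overlapping CCAAT matches, one on each strand.

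Summed over the 42 genes, the level in all cells was 1407 and 1915 CPM in lung 1 and 2 and 1523 and 1341 CPM in MLN 1 and 2. In the IL-4eGFP+ hashtag samples it was 3918 and 3947 CPM in medLN 1 and 2 and 3354 and 3478 CPM in MLN 1 and 2. In the IL-4eGFP- samples it was 1061 and 1086 CPM in medLN 1 and 2 and 831 and 1013 CPM in MLN 1 and 2. Every IL-4eGFP+ hashtag sample thus lay above every IL-4eGFP- sample. The runs were sequenced separately and are set side by side without a test.

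The 5 genes picked by mean CPM over the 12 samples were Smc4, Bub3, Mki67, Top2a and Ube2c, and they differed in how far their level varied between samples. Smc4, the ATPase subunit of both condensins, ranged from 126 CPM in lung 1 to 295 CPM in IL-4eGFP- MLN 1. Bub3, a checkpoint protein that also serves in RNA splicing, ranged from 99.6 CPM in lung 1 to 212 CPM in IL-4eGFP+ medLN 2. These ranges were narrow beside those of Mki67 (23.8 to 305 CPM), of Top2a, the topoisomerase that untangles sister chromatids (26.1 to 262 CPM), and of Ube2c, the ubiquitin-conjugating enzyme of the anaphase-promoting complex (17.0 to 285 CPM).

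**Figure D1:**
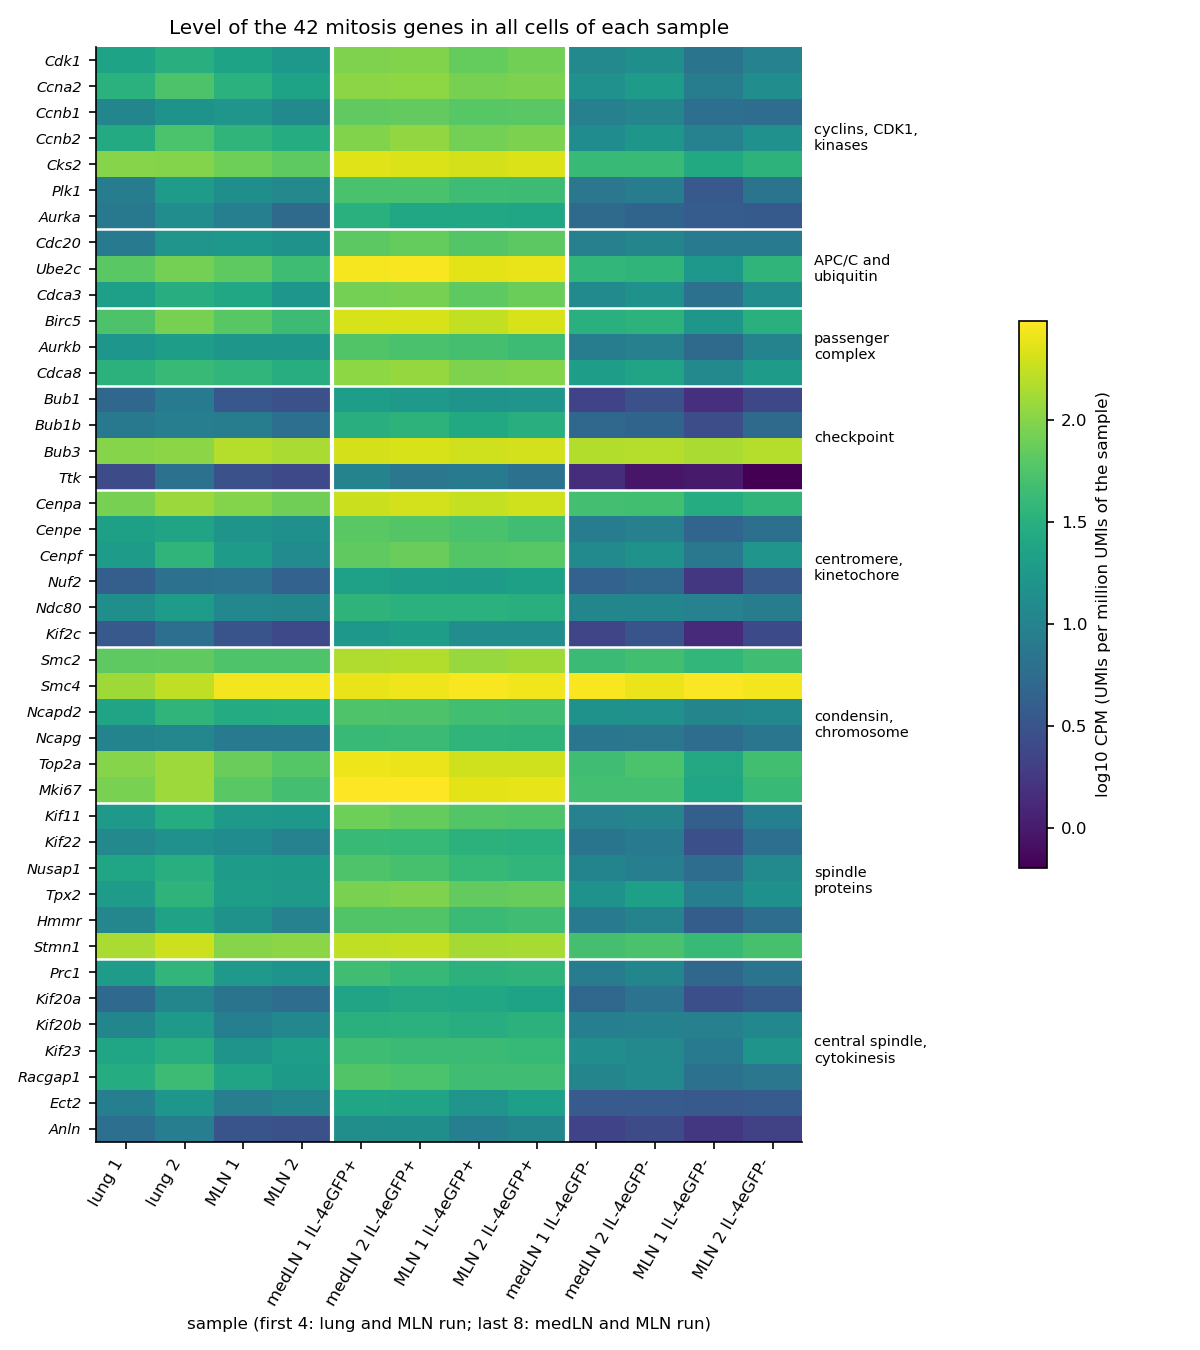
Level of the 42 mitosis genes (rows, grouped by role) in all cells of the 12 samples (columns), as log10 CPM; white lines separate the groups of samples and the roles. The 4 IL-4eGFP+ hashtag samples are the brightest for most genes, while Smc4 and Bub3 stay bright in all 12 columns.

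Mki67-positive cells held most of the UMIs of these genes in most samples. They were 438 cells of the lung and MLN run and 1337 cells of the medLN and MLN run. They took 3.93 to 38.9% of all UMIs of a sample and 35.3 to 89.3% of the UMIs of the 42 genes. Summed over the list, the level in these cells was 4916 to 6259 CPM in the lung and MLN libraries, 7780 to 9456 CPM in the IL-4eGFP+ samples and 7449 to 10287 CPM in the IL-4eGFP- samples. In cells without a Mki67 UMI it was 447 to 789 CPM in all 12 samples. Mki67 chose these cells, so its own UMIs are part of that difference, and the difference is given as a description with no test. Mki67-positive cells were also deeper, with a median of 7935 to 10855 UMIs per cell in a sample against 2945 to 6649 in Mki67-negative cells.

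Depth was then held equal by drawing 2000 UMIs at random from every cell. This dropped 84 shallower cells of the lung and MLN run and 1713 of the medLN and MLN run. The median number of the other 41 genes detected in a Mki67-positive cell was then 2 to 3.5 in the lung and MLN libraries, 7 to 9 in the IL-4eGFP+ samples and 6 to 7.5 in the IL-4eGFP- samples, against 1 in Mki67-negative cells of every sample. At least 5 of the 41 genes were found in 38.8 to 44.1% of the Mki67-positive cells of the lung and MLN libraries and in 57.5 to 73.9% of those of the hashtag samples. Among Mki67-negative cells this share was 0.103 to 1.21%. No gene of the 41 was found in 25.9% of the Mki67-positive cells of lung 1 and in 3.83% of those of IL-4eGFP+ medLN 2, the highest and lowest share of the 12 samples. A gene not found among 2000 UMIs may still be transcribed.

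**Figure D2:**
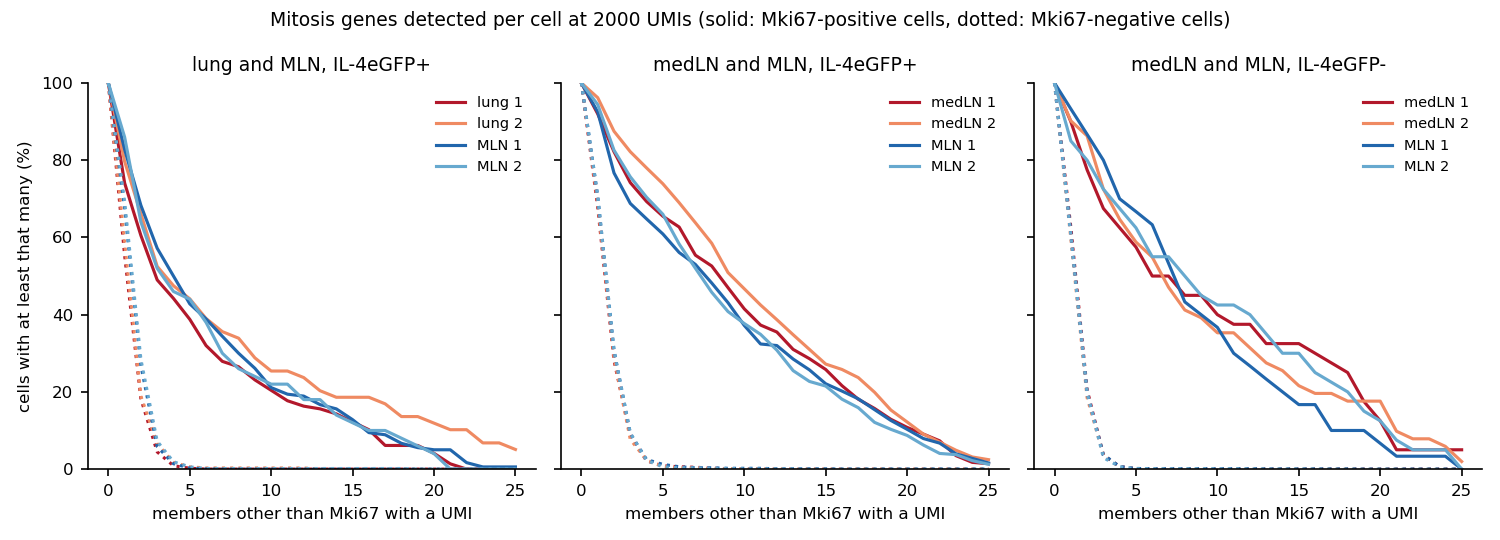
Share of cells (y axis, percent) with a UMI of at least the number of genes on the x axis, of the 41 genes other than Mki67, after thinning to 2000 UMIs; solid lines are Mki67-positive and dotted lines Mki67-negative cells of each sample. The dotted lines are at or below 1.21% at 5 genes, where the solid lines lie between 38.8 and 73.9%. Cells were classed by Mki67 at full depth.

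The share of a gene's UMIs that lay in Mki67-positive cells is given by its range over the 12 samples, because these cells took 3.93 to 38.9% of the UMIs of a sample. It was 90.9 to 100% for Hmmr, a spindle assembly factor, 90.2 to 99.2% for Nusap1, 89.9 to 99.6% for Ccna2 and 81.7 to 99.4% for Cenpf. For Bub3 it was 6.45 to 54.1% and for Smc4 6.26 to 50.4%, below the range of those 4 genes in every sample. Wide ranges were seen for Cks2, the small CDK-binding protein (50 to 86.5%), Cenpa, the centromeric histone H3 variant (40.2 to 83.1%), the central spindle kinesin Kif23 (37.4 to 89.6%) and the condensin subunits Ncapd2 (45.5 to 87.0%) and Smc2 (25.4 to 84.8%). The median ratio of CPM in Mki67-positive to Mki67-negative cells was 1.65 for Smc4 and 1.78 for Bub3, and in both it was above 1 in 12 of 12 samples.

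Lung was compared with MLN to ask where IL-4eGFP+ cells carried more of these transcripts. Lung 1 had 13.8% Mki67-positive cells (exact Clopper-Pearson 95% interval 11.8 to 16%) and lung 2 had 14.2% (11.0 to 17.9%). MLN 1 had 7.31% (6.31 to 8.41%), and MLN 2 was lowest with 6.63% (4.96 to 8.65%). Intervals cover counting error only. Both lung libraries lay above both MLN libraries, with a mean of 14.0% ± 0.291 (SD, n = 2) against 6.97% ± 0.481 (SD, n = 2) and a difference of 7.01 percentage points. The exact two-sided permutation test gave p = 0.333, the smallest p that 2 against 2 samples allow. At 2000 UMIs per cell the difference was 4.40 percentage points. Cells of this run also needed a TCR. Of the filtered cells, 1082 of 1605 and 416 of 624 had one in lung 1 and 2. In MLN 1 and 2 it was 2462 of 2810 and 754 of 899. Without this criterion the means were 11.8% in lung and 6.68% in MLN, with a difference of 5.17 percentage points.

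In all cells, 14 of the 42 genes were higher in lung and 2 were lower by edgeR's quasi-likelihood test (Benjamini-Hochberg adjusted p below 0.05 over 10588 genes). Of all genes tested, 17.0% were higher in lung and 14.0% lower. The median log2 fold change of the 42 genes was 0.48, that of all genes -0.01, and 37 of the 42 were above 0. Of the 7 central spindle and cytokinesis genes Anln, Racgap1, Kif23 and Prc1 were called higher, and of the 6 condensin and chromosome structure genes Mki67, Top2a and Smc2 were. The 3 genes of the anaphase-promoting complex group and the 3 of the passenger complex were not called. However, Ube2c and Birc5 of these groups were called higher with the mouse as a block and with no filter on low counts. At 2000 UMIs per cell, where 32 of the 42 genes were tested, Ube2c, Cdca3, Birc5 and Cdca8 were called higher. Of the 7 central spindle and cytokinesis genes, Kif23 alone was called higher there.

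Mki67 was at 87.2 and 123 CPM in lung and 62.3 and 47.8 CPM in MLN. Both lung libraries exceeded both MLN libraries, with a log2 fold change of 1.01 (SE 0.161, edgeR adjusted p = 0.00139). Top2a was at 99.8 and 123 CPM in lung against 74.8 and 59.4 CPM in MLN, with a log2 fold change of 0.83 (SE 0.136, edgeR adjusted p = 0.00169) and no overlap. Stmn1, which encodes the microtubule-destabilizing protein stathmin, was at 139 and 192 CPM in lung and 100 and 104 CPM in MLN. It was higher in lung by a log2 fold change of 0.81 (SE 0.129, edgeR adjusted p = 0.00141), again with the organs apart.

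Among the cytokinesis genes, Anln, which encodes the contractile ring scaffold anillin, was at 5.99 and 8.93 CPM in lung and 3.17 and 2.90 CPM in MLN, with a log2 fold change of 1.33 (SE 0.309, edgeR adjusted p = 0.00998). Racgap1, a subunit of the centralspindlin complex, was at 29.2 and 44.0 CPM in lung and 23.6 and 18.3 CPM in MLN, with a log2 fold change of 0.84 (SE 0.187, edgeR adjusted p = 0.00827). Bub1, a checkpoint kinase at the kinetochore, was at 5.05 and 7.86 CPM in lung and 3.38 and 2.90 CPM in MLN, with a log2 fold change of 1.05 (SE 0.323, edgeR adjusted p = 0.0345). In Anln, Racgap1 and Bub1 the lung libraries lay above the MLN libraries and lung 2 was the highest. The call of Bub1 was lost without any 1 of the 4 libraries, without the TCR criterion and on library totals without TMM, that of Anln without MLN 1 and that of Racgap1 at 2000 UMIs per cell. Bub1 and Anln were also lost with DESeq2.

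Of the 42 genes 5 had a log2 fold change below 0, and of these Smc4 and Bub3 alone were called lower in lung. Smc4 was at 126 and 169 CPM in lung and 273 and 274 CPM in MLN, and it fell by 0.78 on the log2 scale (SE 0.124, edgeR adjusted p = 0.00134). Bub3 was at 99.6 and 105 CPM in lung and 152 and 138 CPM in MLN, and it fell by 0.37 (SE 0.113, edgeR adjusted p = 0.0319). Neither gene overlapped between the organs. The Bub3 call was lost with DESeq2 and without lung 2, MLN 1 or MLN 2, whereas Smc4 was called lower in every alternative run. In Mki67-negative cells alone Smc4 was at 87.6 and 115 CPM in lung against 266 and 268 CPM in MLN.

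Of the 7 cyclins and kinases Ccna2 and Cks2 were called higher. Cks2 did not overlap between the organs. Ccna2 did, with 32.7 and 54.3 CPM in lung and 32.9 and 22.8 CPM in MLN (log2 fold change 0.66, SE 0.220, edgeR adjusted p = 0.0454). Its call was lost with DESeq2, on library totals without TMM and without the TCR criterion. Cdk1 and Ccnb1 were not called and overlapped too, as did Cdc20 of the anaphase-promoting complex group. Cdk1, the kinase that drives entry into mitosis, was at 22.7 and 30.4 CPM in lung and 22.9 and 17.0 CPM in MLN (log2 fold change 0.46, SE 0.183, edgeR adjusted p = 0.0875). Its cyclin Ccnb1 was at 10.7 and 15.0 CPM against 15.8 and 12.3 CPM (log2 fold change -0.09, SE 0.216, edgeR adjusted p = 0.775). For Cdc20, the activator of the anaphase-promoting complex, lung 1 was the lowest with 7.88 CPM and lung 2 was at 15.7 CPM, beside 16.9 and 15.0 CPM in MLN (log2 fold change -0.46, SE 0.262, edgeR adjusted p = 0.211). The passenger complex genes Aurkb, its kinase, and Birc5, which encodes survivin, had a log2 fold change of 0.23 (SE 0.166, edgeR adjusted p = 0.313) and 0.47 (SE 0.191, edgeR adjusted p = 0.0933). Neither passed this test, and in Birc5 lung 1 with 54.7 CPM lay below MLN 1 with 61.0 CPM. At 2000 UMIs per cell Birc5 and Cdk1 were called higher in lung. With the mouse as a block, Birc5 (log2 fold change 0.46, edgeR adjusted p = 0.0218) and Cdk1 (0.45, edgeR adjusted p = 0.0403) were called higher in lung, as were Ube2c, Kif11, Tpx2 and Cenpf.

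The calls in this comparison depended on the test, and the median log2 fold change on which libraries were kept. DESeq2 called 6 of 42 (5 higher, with Smc4 lower), and of all genes 1147 higher and 686 lower. The median log2 fold change of the 42 genes, 0.48 with all libraries, was 0.42 without MLN 2, the library with pancreas transcripts. It was 0.65 without MLN 1, 0.24 without lung 2 and 0.76 without lung 1. Scaling to library totals without TMM, an alternative chosen after seeing the data, moved the median log2 fold change of all genes from -0.01 to -0.15 and left 8 genes higher and Smc4 and Bub3 lower. All-gene calls were then 1309 higher and 2050 lower, against 1803 and 1481 with TMM. Of the 25 genes that could be tested in Mki67-negative cells alone, 3 were higher (Top2a, Cks2 and Racgap1), where 16.5% of all genes were higher.

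Within Mki67-positive cells the organs differed in 1 of the other 41 genes. The median log2 fold change was -0.11. Of these genes, 0 were higher (9.01% of the 8259 genes tested were) and 1 was lower (4.02% of all genes were). In edgeR 8 had an unadjusted p below 0.05, as had 2090 of all 8259 genes. DESeq2 called 0, against 331 higher and 88 lower among all genes. Cdc20 was at 32.9 and 59.4 CPM in lung and at 98.1 and 89.8 CPM in MLN. Both lung libraries lay below both MLN libraries, and Cdc20 fell by 1.10 on the log2 scale (SE 0.236, edgeR adjusted p = 0.00263). The call was lost with DESeq2, at 2000 UMIs per cell and without lung 1. With the mouse as a block, Plk1, the polo-like kinase, and Ccnb2, another B-type cyclin, were called lower as well, which made 3 genes. Ccnb2 was at 120 and 159 CPM in lung and 212 and 188 CPM in MLN, and Plk1 at 38.3 and 71.3 against 81.9 and 72.2 CPM.

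None of the genes called higher in lung over all cells was called in Mki67-positive cells, where Mki67 was not tested. Anln was at 25.2 and 35.6 CPM in lung and 17.1 and 17.6 CPM in MLN without overlap (log2 fold change 0.80, SE 0.302, edgeR adjusted p = 0.0889), and Kif23 did not overlap either (0.35, SE 0.210, edgeR adjusted p = 0.314). Top2a was at 358 and 445 CPM in lung and 392 and 324 CPM in MLN (log2 fold change 0.20, SE 0.145, edgeR adjusted p = 0.433). Stmn1 was at 562 and 661 CPM against 545 and 590 CPM (log2 fold change 0.17, SE 0.129, edgeR adjusted p = 0.462). In both the libraries of the organs overlapped. Cdk1 (log2 fold change -0.14, SE 0.185, edgeR adjusted p = 0.695), Ccnb1 (-0.42, SE 0.262, edgeR adjusted p = 0.344) and Birc5 (-0.24, SE 0.156, edgeR adjusted p = 0.375) overlapped too. Aurkb did not overlap, with 68.4 and 77.2 CPM in lung and 98.1 and 103 CPM in MLN, but missed the threshold (log2 fold change -0.41, SE 0.189, edgeR adjusted p = 0.180), and so did Bub3 (-0.44, SE 0.160, edgeR adjusted p = 0.0796). Mki67 itself, which chose the cells, was at 406 and 511 CPM in lung and 396 and 343 CPM in MLN. Smc4 was at 266 and 337 CPM in lung and 311 and 314 CPM in MLN there, with a log2 fold change of -0.01 (SE 0.145, edgeR adjusted p = 0.977). The change between all cells and Mki67-positive cells was not itself tested. Cells with extra TCR chains, which can be 2 cells in 1 droplet, were 4.03 and 3.39% of the Mki67-positive cells in lung and 12.8 and 16% in MLN. Without them 3 genes were called lower in lung (Cdc20, Nuf2 and Ccnb2).

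**Figure D3:**
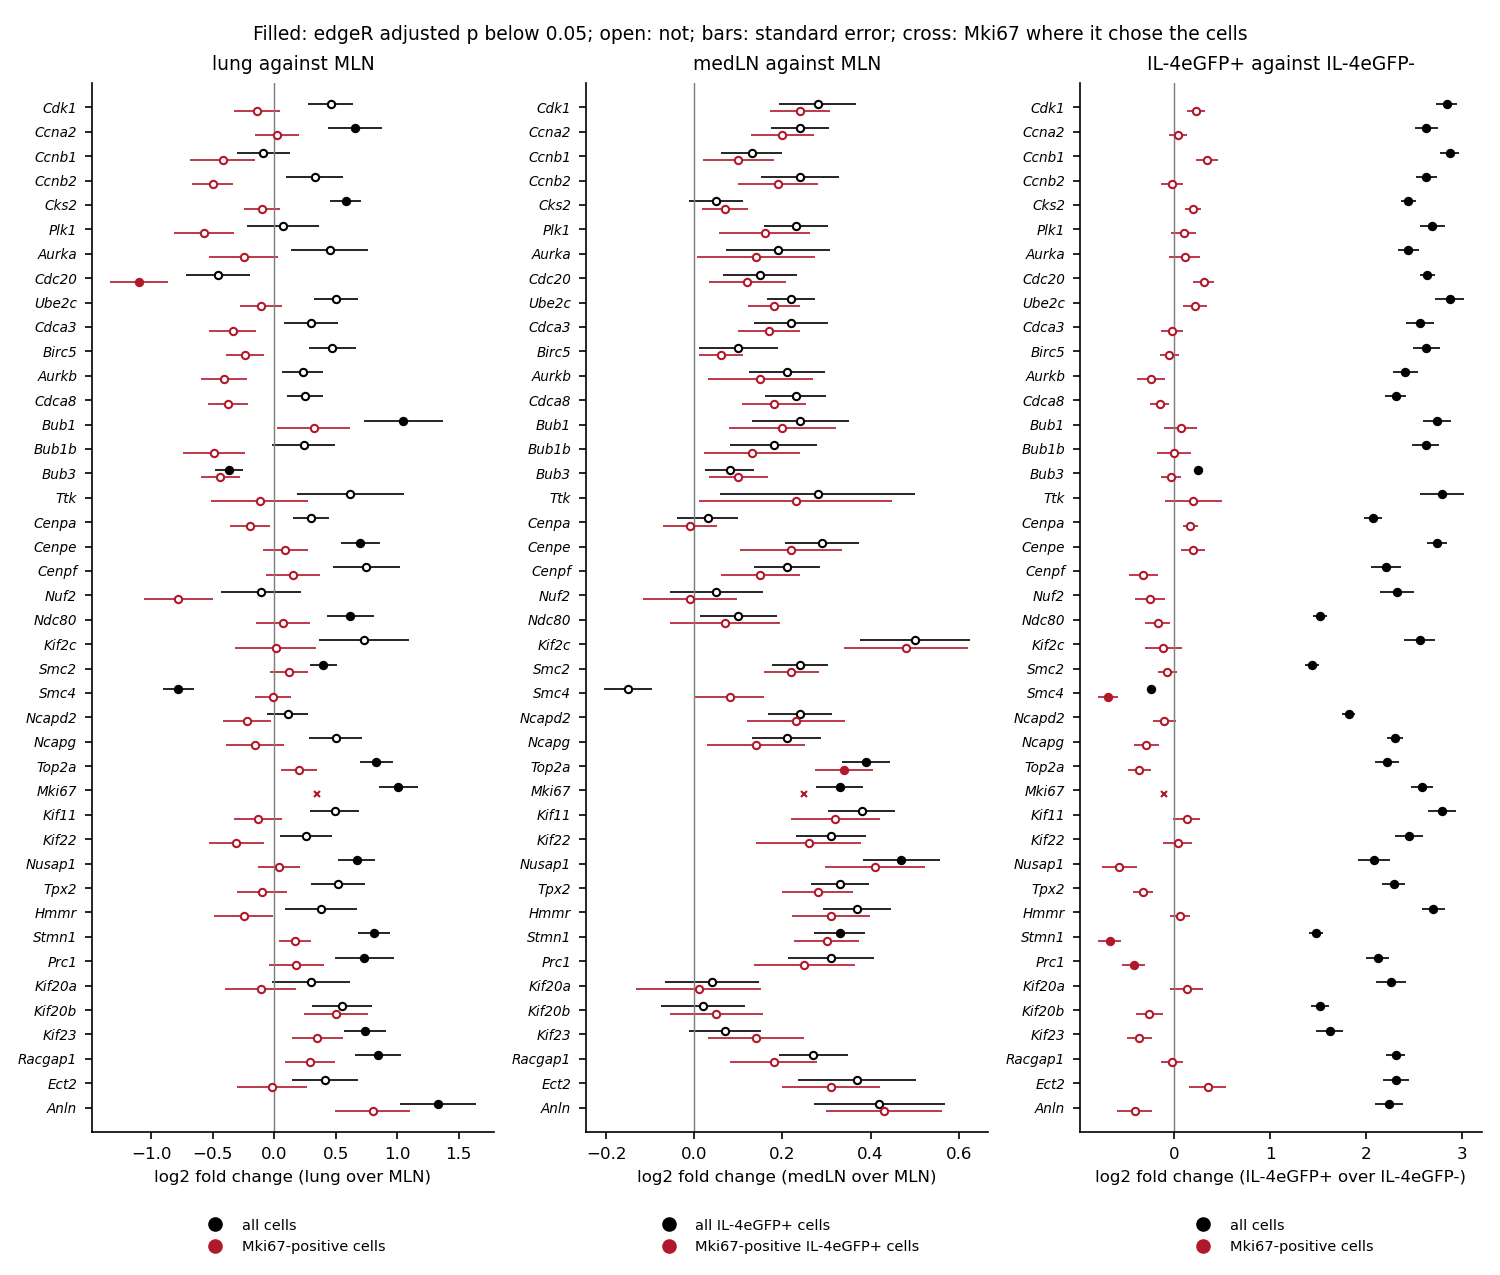
Log2 fold changes of the 42 genes (x axes) between lung and MLN, medLN and MLN, and the gates, in all cells (black) and in Mki67-positive cells (red); bars are standard errors and filled points passed edgeR's adjusted threshold of 0.05. In the gate panel the black points of 40 genes lie at 1.44 or higher while the red points lie between -0.69 and 0.35.

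The node that drains the lung was compared with the MLN in IL-4eGFP+ cells. Mki67-positive cells were 14.1% of medLN 1 (12.7 to 15.7%) and 14.8% of medLN 2 (13.2 to 16.4%). For MLN 1 the share was 12.9% (11.4 to 14.4%), and for MLN 2, the highest, it was 16.3% (14.7 to 18%). The MLN samples lay on either side of the medLN samples, with means of 14.4% ± 0.433 and 14.6% ± 2.42 (SD, n = 2 each) and an exact permutation p = 1.00 where 0.333 is the smallest possible. At 2000 UMIs per cell the direction turned: both medLN samples (10.5 and 11.4%) lay above both MLN samples (9.28 and 10.2%), with a difference of 1.24 percentage points and an exact permutation p = 0.333. Over all IL-4eGFP+ cells, 4 of the 42 genes were higher in medLN (0.675% of the 11263 genes tested were) and 0 were lower (0.604% of all genes). The log2 fold change was above 0 for 41 of the 42 genes, with a median of 0.23 against 0.00 for all genes. An unadjusted p below 0.05 in edgeR was found for 27 of the 42 and for 1392 of all 11263 genes.

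The 4 genes were Nusap1, Top2a, Stmn1 and Mki67. Nusap1, a microtubule-bundling protein of the spindle, was at 55.7 and 50.3 CPM in medLN and 39.4 and 36.7 CPM in MLN (log2 fold change 0.47, SE 0.0865, edgeR adjusted p = 0.0446). Top2a was at 262 and 254 CPM against 195 and 196 CPM (log2 fold change 0.39, SE 0.0545, edgeR adjusted p = 0.0155). All 4 genes had both medLN samples above both MLN samples. Mki67 was at 305 and 298 CPM against 236 and 242 CPM (log2 fold change 0.33, SE 0.0534, edgeR adjusted p = 0.0314). Stmn1 was at 169 and 174 CPM against 134 and 136 CPM (log2 fold change 0.33, SE 0.0580, edgeR adjusted p = 0.0354). None of the 4 calls was left without medLN 1, without medLN 2, at 2000 UMIs per cell or with no filter on low counts, and without MLN 2 there were 2, Top2a and Mki67.

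The other named genes did not pass. Cdk1 was at 92.0 and 94.9 CPM in medLN and 70.5 and 82.5 CPM in MLN (log2 fold change 0.28, SE 0.0870, edgeR adjusted p = 0.228), with medLN above MLN. Ccnb1 (0.13, SE 0.0686, edgeR adjusted p = 0.498), Cdc20 (0.15, SE 0.0840, edgeR adjusted p = 0.533), Aurkb (0.21, SE 0.0861, edgeR adjusted p = 0.376) and Bub3 (0.08, SE 0.0563, edgeR adjusted p = 0.656) were apart in the same direction. In Birc5 MLN 1 stood low with 175 CPM while MLN 2 with 212 CPM lay just above the medLN samples with 209 and 210 CPM (log2 fold change 0.10, SE 0.0893, edgeR adjusted p = 0.716).

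Within Mki67-positive IL-4eGFP+ cells Top2a alone was called, as 1 gene higher (0.446% of all genes were) with 0 lower (0.497% of all genes). It was at 644 and 645 CPM in medLN and 553 and 474 CPM in MLN, with a log2 fold change of 0.34 (SE 0.0665, edgeR adjusted p = 0.0459). Both medLN samples were higher than both MLN samples. The median log2 fold change of the 41 genes other than Mki67 was 0.18, and 39 of them were above 0. An unadjusted p below 0.05 in edgeR was found for 16 of the 41 and for 954 of all 9860 genes. With the mouse as a block Nusap1 and Stmn1 were called higher as well, which made 3 genes. The Top2a call was lost with DESeq2, at 2000 UMIs per cell, with at least 2 Mki67 UMIs per cell, and without medLN 1, medLN 2 or MLN 2. Stmn1 had a log2 fold change of 0.30 (SE 0.0734, edgeR adjusted p = 0.118) and Cdk1 of 0.24 (SE 0.0683, edgeR adjusted p = 0.183). Ccnb1 (0.10, SE 0.0805), Cdc20 (0.12, SE 0.0873), Aurkb (0.15, SE 0.119), Birc5 (0.06, SE 0.0498) and Bub3 (0.10, SE 0.0674) had edgeR adjusted p of 0.711 to 0.793, and Mki67, which chose the cells, was at 796, 803, 726 and 622 CPM in the same order of samples.

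In IL-4eGFP- cells of the same nodes 0 of the 41 genes that passed the filter on low counts were called between medLN and MLN, and Ttk, a checkpoint kinase at 0.634 to 1.42 CPM, was left out. edgeR called 0.178% of all genes in either direction. Of the 41 genes, 16 had an unadjusted p below 0.05 in edgeR, as had 666 of all 10684 genes. DESeq2 called 0, against 15 higher and 2 lower among all genes. The median log2 fold change of the 41 genes was 0.37. Mki67 was at 47.8 and 47.6 CPM in medLN and 23.8 and 41.3 CPM in MLN (log2 fold change 0.50, SE 0.181, edgeR adjusted p = 0.620). MLN 1 stood apart from the other 3 samples in Mki67 and also in Birc5, where it was at 16.8 CPM and the others at 31.7 to 34.7 CPM (log2 fold change 0.38, SE 0.210, edgeR adjusted p = 0.907). Ccnb1 was at 9.31 and 10.6 CPM in medLN and 6.07 and 5.71 CPM in MLN (log2 fold change 0.70, SE 0.196, edgeR adjusted p = 0.444). Cdk1 (0.57, SE 0.204), Top2a (0.36, SE 0.196), Cdc20 (0.22, SE 0.181), Aurkb (0.16, SE 0.265), Stmn1 (0.10, SE 0.103) and Bub3 (0.01, SE 0.0709) had edgeR adjusted p of 0.615 to 0.995. With the mouse as a block 1 gene, Cenpa, was called. The median log2 fold change of the list was 0.76 without MLN 2, 0.12 without MLN 1, 0.45 without medLN 1 and 0.31 without medLN 2.

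IL-4eGFP+ and IL-4eGFP- cells of the nodes differed in nearly the whole list. The share of Mki67-positive cells was 12.9 to 16.3% in the 4 IL-4eGFP+ samples and 1.94% (1.40 to 2.61%), 2.49% (1.86 to 3.25%), 1.38% (0.938 to 1.95%) and 1.89% (1.36 to 2.56%) in IL-4eGFP- medLN 1, medLN 2, MLN 1 and MLN 2. All IL-4eGFP+ samples lay above all IL-4eGFP- samples, with 14.5% ± 1.42 against 1.92% ± 0.453 (SD, n = 4 each), a difference of 12.6 percentage points and an exact permutation p = 0.0286, the smallest that 4 against 4 samples allow. The 4 samples of a gate were 2 nodes of each of 2 mice. The permutation test took all samples as independent and left out their pairing by node and mouse. At 2000 UMIs per cell the difference was 9.04 percentage points. Over all cells 41 of the 42 genes were higher in IL-4eGFP+ samples (31.9% of the 11535 genes tested were) and Smc4 was lower (30.4% of all genes were). The median log2 fold change was 2.37 against -0.01 for all genes.

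The genes with the largest change were Ube2c, Ccnb1, Cdk1 and Kif11. Ube2c was at 280, 285, 236 and 246 CPM in IL-4eGFP+ medLN 1, medLN 2, MLN 1 and MLN 2 and at 37.6, 35.8, 17.0 and 36.1 CPM in the IL-4eGFP- samples (log2 fold change 2.87, SE 0.147, edgeR adjusted p = 1.8e-08). Ccnb1 was at 67.7, 69.1, 60.7 and 63.1 CPM against 9.31, 10.6, 6.07 and 5.71 CPM (log2 fold change 2.87, SE 0.104, edgeR adjusted p = 1.3e-09). Cdk1 was at 92.0, 94.9, 70.5 and 82.5 CPM against 11.6, 13.9, 6.81 and 9.77 CPM (log2 fold change 2.84, SE 0.108, edgeR adjusted p = 1.8e-09). The gates were far apart in these genes and the lowest value of each gate was that of an MLN sample. Kif11, the kinesin that separates the spindle poles, had a mean of 65.8 ± 10.6 against 8.41 ± 2.94 CPM (SD, n = 4 each) and a log2 fold change of 2.79 (SE 0.145, edgeR adjusted p = 1.9e-08).

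Mki67 had a log2 fold change of 2.58 (SE 0.115, edgeR adjusted p = 6.3e-09), with a mean of 270 ± 36.4 against 40.1 ± 11.3 CPM (SD, n = 4 each). Top2a was at 227 ± 36.5 against 42.8 ± 11.5 CPM, Birc5 at 202 ± 17.4 against 28.9 ± 8.12 CPM and Cdc20 at 64.6 ± 5.65 against 9.08 ± 1.14 CPM. These 3 genes and Aurkb (50.3 ± 5.16 against 8.29 ± 2.08 CPM) had log2 fold changes of 2.22 to 2.64 and edgeR adjusted p of 4.1e-10 to 3.6e-08. No gene of this paragraph overlapped between the gates. Stmn1 was at 154 ± 21.1 against 48.1 ± 4.82 CPM, with a log2 fold change of 1.48 (SE 0.0690, edgeR adjusted p = 8.7e-09).

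Bub3 and Smc4 again stood apart from the list. Bub3 was at 205, 212, 193 and 199 CPM in IL-4eGFP+ samples and 151, 155, 138 and 154 CPM in IL-4eGFP- samples, with a log2 fold change of 0.25 (SE 0.0453, edgeR adjusted p = 5.1e-04), which turned to -0.01 at 2000 UMIs per cell and to -0.09 in Mki67-negative cells. Smc4 was at 250, 259, 288 and 270 CPM against 284, 253, 295 and 271 CPM, and fell by 0.24 on the log2 scale (SE 0.0425, edgeR adjusted p = 4.7e-04). The gates overlapped in Smc4 CPM. Without TMM, which moved the median log2 fold change of all genes to 0.18 and the calls of all genes from 3676 higher and 3502 lower to 5336 and 2071, Smc4 was not called and the other 41 genes stayed higher.

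Cells without a Mki67 UMI carried a part of the difference between the gates. There 25 of the 33 genes that passed the filter were higher in IL-4eGFP+ samples, where 28.7% of all genes were, and Smc4 was lower. Birc5 was at 7.85, 9.55, 14.0 and 11.4 CPM in Mki67-negative IL-4eGFP+ cells and at 1.51, 1.70, 0.387 and 1.07 CPM in Mki67-negative IL-4eGFP- cells. Cks2 was at 47.9 to 62.3 CPM against 13.6 to 14.9 CPM. In both the gates were apart by several-fold, at levels far below those of Mki67-positive cells of these nodes (419 to 644 CPM for Birc5).

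The gate difference was then compared between the nodes. The interaction was called for 0 of the 42 genes (0.156% of all genes in either direction). In edgeR 4 had an unadjusted p below 0.05, as had 807 of all 11535 genes. DESeq2 called 0, against 15 higher and 22 lower among all genes. The difference of log2 fold changes, medLN minus MLN, was -0.56 for Ccnb1 (SE 0.153, edgeR adjusted p = 0.415), -0.29 for Cdk1 (SE 0.218, edgeR adjusted p = 0.875) and 0.24 for Stmn1 (SE 0.122, edgeR adjusted p = 0.763). For Mki67 it was -0.16 (SE 0.230), for Top2a 0.04 (SE 0.255), for Cdc20 -0.06 (SE 0.166), for Birc5 -0.27 (SE 0.285), for Aurkb 0.05 (SE 0.289) and for Bub3 0.07 (SE 0.0893), with edgeR adjusted p of 0.917 to 0.995. Without MLN 2 of the IL-4eGFP- gate 1 gene, Ube2c, was called.

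Within Mki67-positive cells 3 of the other 41 genes were called between the gates, all lower in IL-4eGFP+ cells (6.64% of all genes were lower). None was higher (4.31% of all genes). These counts alone do not set the list apart from all genes. The median log2 fold change was -0.02. Smc4 was at 328, 345, 348 and 294 CPM in IL-4eGFP+ medLN 1, medLN 2, MLN 1 and MLN 2 and at 583, 418, 469 and 565 CPM in the IL-4eGFP- samples, and fell by 0.69 on the log2 scale (SE 0.101, edgeR adjusted p = 3.2e-04). Stmn1 was at 409, 430, 370 and 315 CPM against 547, 501, 576 and 714 CPM, and fell by 0.67 (SE 0.117, edgeR adjusted p = 0.00128). In both genes every IL-4eGFP+ sample was below every IL-4eGFP- sample, and both were called in every alternative run. Prc1, the microtubule bundler of the central spindle, was at 114, 99.7, 96.5 and 84.4 CPM against 135, 152, 97.6 and 120 CPM, and fell by 0.42 (SE 0.119, edgeR adjusted p = 0.0317). Its samples overlapped, and its call was lost with each node of each mouse as a block (edgeR adjusted p = 0.0543). The call was also lost with no filter on low counts, without TMM, at 2000 UMIs per cell and on leaving out any 1 of several samples. These were medLN 2 or MLN 2 of the IL-4eGFP+ gate and medLN 1, medLN 2 or MLN 2 of the IL-4eGFP- gate.

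Genes with the largest gate difference over all cells had smaller log2 fold changes between the gates in Mki67-positive cells. For Ube2c it was 0.22 (SE 0.124, edgeR adjusted p = 0.303) and for Kif11 0.13 (SE 0.140, edgeR adjusted p = 0.637), both with overlapping samples. Cdk1 was at 236, 251, 205 and 207 CPM against 178, 200, 154 and 199 CPM (log2 fold change 0.23, SE 0.0959, edgeR adjusted p = 0.136), and Ccnb1 at 171, 178, 172 and 157 CPM against 142, 154, 129 and 89.0 CPM (log2 fold change 0.34, SE 0.113, edgeR adjusted p = 0.0670). Cdc20 was at 158 to 187 CPM against 116 to 144 CPM (log2 fold change 0.31, SE 0.108, edgeR adjusted p = 0.0796). Cdk1, Ccnb1 and Cdc20 were apart between the gates without passing the test. Top2a (-0.36, SE 0.119, edgeR adjusted p = 0.0654), Aurkb (-0.24, SE 0.145, edgeR adjusted p = 0.349), Birc5 (-0.05, SE 0.0968, edgeR adjusted p = 0.816) and Bub3 (-0.03, SE 0.103, edgeR adjusted p = 0.919) overlapped. Mki67, which chose the cells, was at 622 to 803 CPM against 605 to 853 CPM. Without TMM, Ccnb1 and Cdc20 were called higher and Smc4 and Stmn1 lower, and the all-gene calls moved from 407 higher and 627 lower to 602 and 548.

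**Figure D4:**
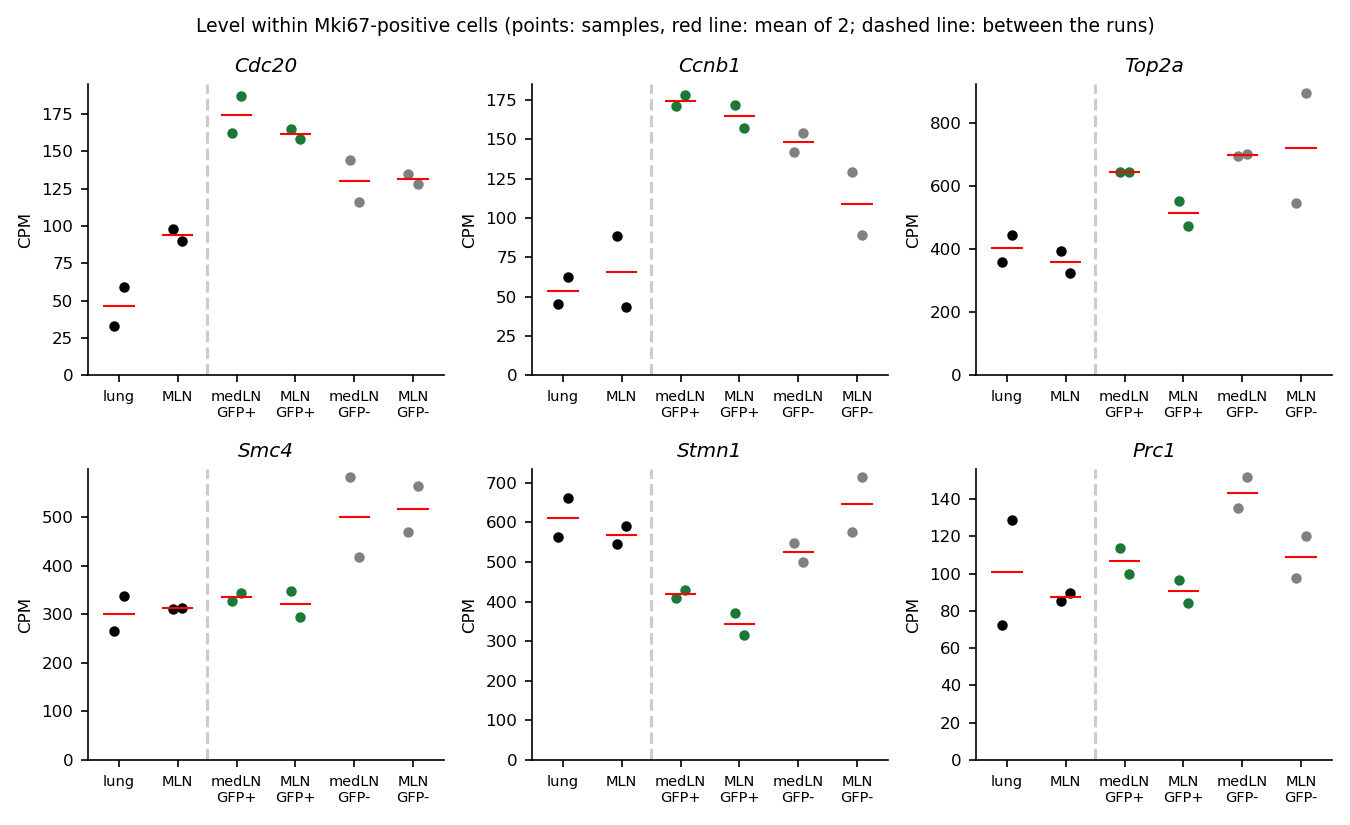
CPM (y axes, from 0) of Cdc20, Ccnb1, Top2a, Smc4, Stmn1 and Prc1 summed over the Mki67-positive cells of each sample (points), with the mean of the 2 samples of a group in red; the dashed line separates the runs. Cdc20 lies at 32.9 and 59.4 CPM in lung and at 98.1 and 89.8 CPM in MLN, and Smc4 and Stmn1 lie higher in the IL-4eGFP- than in the IL-4eGFP+ samples.

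The Mki67-positive cells of the gates differed in other markers too. Among Mki67-positive IL-4eGFP- cells, a UMI of Foxp3, the lineage factor of regulatory T cells, was found in 52.4% for medLN 1 and 46.2% for medLN 2. MLN 1 had 9.68% and MLN 2 had 22.0% of such cells. In Mki67-negative IL-4eGFP- cells it was 8.39 to 11.4%, and in Mki67-positive IL-4eGFP+ cells 1.01 to 4.60%. The 7 B cell and plasma cell markers summed to 172, 176, 59.8 and 228 CPM in the Mki67-positive IL-4eGFP- samples and to 198, 21.5, 147 and 146 CPM in the Mki67-positive IL-4eGFP+ samples, and the part of these cells in the results was not tested.

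Leaving out the cells with a Foxp3 UMI, an alternative chosen after seeing the data, changed the calls between the gates. It left 20, 28, 28 and 32 Mki67-positive cells in the IL-4eGFP- samples, with 160075, 198521, 270577 and 294876 UMIs. The IL-4eGFP+ samples kept 2867476 to 3993520 UMIs, so the lowest CPM of the IL-4eGFP- samples rest on few UMIs. A Foxp3 UMI is more readily found in a deeper cell, so this choice also selects cells by depth. The part of depth in the calls was not tested. Of the 41 genes, 11 were then higher in IL-4eGFP+ cells (7.31% of all genes were). Stmn1 and Smc4 were lower, and the share of all genes lower in these cells is not given here. Ccnb1 was at 167, 177, 172 and 155 CPM in the IL-4eGFP+ samples and 37.5, 111, 81.3 and 71.2 CPM in the IL-4eGFP- samples (log2 fold change 1.07, SE 0.176, edgeR adjusted p = 3.5e-04). Aurka, the spindle pole kinase, was at 62.1 to 78.7 CPM against 15.1 to 64.4 CPM (log2 fold change 0.96, SE 0.295, edgeR adjusted p = 0.0334). Ccnb1 was apart between the gates in this choice of cells too, while in Aurka IL-4eGFP- MLN 2 reached the IL-4eGFP+ range.

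The other 9 genes were Kif20a, Ube2c, Plk1, Cdc20, Cdk1, Cks2, Racgap1, Cenpa and Hmmr. Ube2c, at 612 to 745 CPM against 240 to 600 CPM, had a log2 fold change of 0.76 (SE 0.168, edgeR adjusted p = 0.00403). Kif20a, a kinesin of the central spindle, was at 54.1 to 69.1 CPM against 23.7 to 50.4 CPM (log2 fold change 0.76, SE 0.246, edgeR adjusted p = 0.0433). Both were apart between the gates. Stmn1 was at 414, 429, 370 and 315 CPM against 825, 589, 580 and 722 CPM and fell by 0.89 on the log2 scale (SE 0.104, edgeR adjusted p = 7.6e-06). Smc4 was at 286 to 345 CPM against 388 to 718 CPM and fell by 0.73 (SE 0.127, edgeR adjusted p = 5.2e-04).

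**Figure D5:**
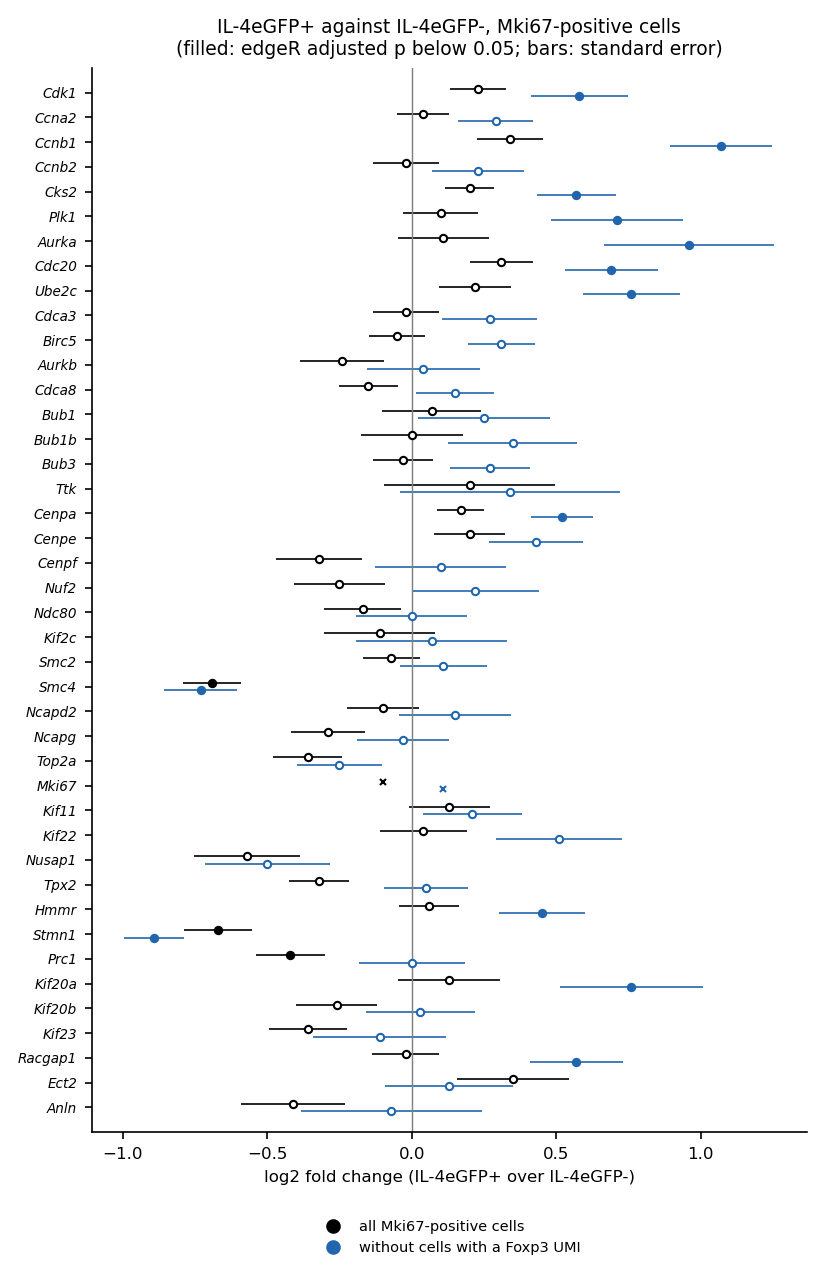
Log2 fold change between the gates (x axis, IL-4eGFP+ over IL-4eGFP-) in Mki67-positive cells for the 42 genes, with all cells (black) and without cells with a Foxp3 UMI (blue); bars are standard errors and filled points passed edgeR's adjusted threshold. Stmn1 and Smc4 lie at -0.89 and -0.73 without these cells, and Ccnb1 moves from 0.34 to 1.07.

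Other genes of the cell cycle were counted in the same way. Of 82 other mitosis genes, 17 of the 79 tested were higher and 2 lower in lung than in MLN over all cells, and of 40 S phase genes 11 were higher and 0 lower, where 17.0% of all genes were higher and 14.0% lower. In Mki67-positive cells of these organs, 0 of the 79 other mitosis genes and 1 S phase gene, Pola1, higher in lung, were called, where 9.01% of all genes were higher. Between medLN and MLN 0 of the 82 and 0 of the 40 were called in IL-4eGFP+ cells. Of all genes 0.675% were higher and 0.604% lower there, so counts of 0 do not set these lists apart. Median log2 fold changes of the lists were 0.22 and 0.19. Between the gates 78 of the 82 and all 40 S phase genes were higher in IL-4eGFP+ samples, with median log2 fold changes of 2.11 and 1.62, where 31.9% of all genes were higher. In Mki67-positive cells of the gates 5 of the 82 were higher (Nek2, Pttg1, Anp32e, Lmnb1 and Hmgb2), Ncapd3, a condensin subunit, was lower, and of the 40 S phase genes Dut alone was higher, where 4.31% of all genes were higher and 6.64% lower.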

How the data were processed

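The authors deposited UMI counts per gene and cell from 10x 5′ libraries. In the medLN and MLN run both gate libraries were aggregated into a single matrix. Whether this step thinned reads between the gate libraries is not stated in the sources used here. Per the labels and the study's methods, reads were processed with Cell Ranger (versions 2.1.1, 3.0.1 and 6.1.2 are named in the submitters' processing notes) against mm10 (GRCm38), and 2 sequencing runs of each lung and MLN library were combined. From the deposited counts, cells with more than 500 UMIs, more than 500 genes, a novelty above 0.8 and under 7% mitochondrial UMIs were kept. In the lung and MLN run cells also needed a TCR. Gates were read from the library number at the end of each barcode. Hashtags were called with HTODemux (Seurat 5.3.0, quantile 0.99), which left out 1256 and 1280 doublets and 52 and 70 negative barcodes of the IL-4eGFP+ and IL-4eGFP- libraries. No other doublet caller was run, so doublets of 1 hashtag and those of the lung and MLN run remain.

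UMIs were summed per sample and tested with edgeR 4.0.16 (quasi-likelihood, TMM, filterByExpr, Benjamini-Hochberg over all genes tested, threshold 0.05) in R 4.3.3. The standard error (SE) was derived as the absolute log2 fold change divided by the square root of edgeR's F statistic. TCR segment genes were left out of the tests. The tests were checked on simulated counts. Shares of cells were compared by two-sided exact permutation tests (scipy 1.17.1). Total UMIs per sample were 2798232 to 14512767. Between organs, and between nodes within a gate, p-values measure the spread between 2 mice per run. In comparisons that involve both gates, the samples of both nodes and of 2 mice were counted as independent. The samples of a gate shared a library, so the p-values of those comparisons hold no spread between libraries. DESeq2 1.42.0 and the other alternatives are given in the closing section, and 2 of them (leaving out cells with a Foxp3 UMI, and library totals without TMM) were chosen after seeing the data. Named with statistics were the 4 genes with the largest log2 fold change in each direction among those called, and always Mki67, Top2a, Cdk1, Ccnb1, Aurkb, Birc5, Cdc20, Stmn1 and Bub3. Other genes given with values, such as Plk1, Ccnb2, Aurka, Kif20a and Cks2, were chosen after their values were seen. The 42 genes and the other lists were chosen with earlier results of these data known.

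The same mice gave both organs and both gates, so the numbers paired the samples by design. The correlation of deviations from the group means between samples of 1 mouse was 0.0398 for lung and MLN (0.0381 in Mki67-positive cells), 0.235 for medLN and MLN in IL-4eGFP+ cells (-0.04 in Mki67-positive cells), 0.117 in IL-4eGFP- cells, and 0.116 and 0.125 between gates in medLN and MLN (0.0859 and 0.0747 in Mki67-positive cells). Fits with the mouse as a block were run as alternatives. In comparisons that involve both gates, each node of each mouse was the block, and the main fits held the node as a term. Promoter windows were from RefSeq (GRCm38.p6). A background of detection in a further cell class is not reported here.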

Additional observations from a re-analysis of the deposited data

Results flagged for a closer look

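Birc5 stood out in 2 groups of 4 samples because 1 sample lay far from the other 3. In IL-4eGFP+ cells MLN 1 was at 175 CPM and the others at 209 to 212 CPM, and the gap to the nearest sample was 0.936 of the range. In IL-4eGFP- cells MLN 1 was at 16.8 CPM and the others at 31.7 to 34.7 CPM, a gap of 0.830 of the range. Of 40 values examined, these 2 exceeded Dixon's 95% critical ratio for 4 samples, and chance gives about 1 in 20.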

How the results depend on the processing

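The number of genes called, of the 42 (41 in Mki67-positive cells), was set against each alternative. All-gene counts of most alternatives are not given here. A count of the list alone cannot show a change particular to it. Between lung and MLN in all cells it was 16, with 6 under DESeq2, 10 on library totals without TMM, 10 without the TCR criterion, 5 in Mki67-negative cells (25 genes tested) and 8 to 24 when 1 library was left out. In Mki67-positive cells it was 1, with 0 under DESeq2, 2 with DESeq2 size factors in edgeR, 3 on library totals, 0 at 2000 UMIs per cell, 3 without cells of extra TCR chains, 2 with at least 2 Mki67 UMIs and 0 to 4 without 1 library.

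Between medLN and MLN in IL-4eGFP+ cells it was 4, with 0 without a filter on low counts, 1 at 2000 UMIs and 1 in Mki67-negative cells (in both Smc4, lower in medLN and not among the 4; Stmn1 turned to -0.04 on the log2 scale in Mki67-negative cells) and 0 to 3 without 1 sample. In Mki67-positive cells it was 1, with 0 under DESeq2, 5 without the filter, 0 at 2000 UMIs, 0 with at least 2 Mki67 UMIs and 0 to 4 without 1 sample. In IL-4eGFP- cells it was 0, and 0 to 16 without 1 sample. The difference in the share of Mki67-positive cells between these nodes, -0.113 percentage points, turned to 1.24 at 2000 UMIs, to 0.769 with at least 2 Mki67 UMIs and ranged from -1.82 to 1.59 without 1 sample.

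Between the gates it was 42 and 26 in Mki67-negative cells (33 genes tested). Bub3 turned from 0.25 to -0.01 at 2000 UMIs and to -0.09 in Mki67-negative cells. In Mki67-positive cells it was 3, with 8 without the filter, 7 with at least 2 Mki67 UMIs and 13 without cells with a Foxp3 UMI, and 2 to 4 without 1 sample. The interaction of gate and node gave 0, and 0 to 1 without 1 sample. The replicate block was the mouse, or each node of each mouse in comparisons that involve both gates. With this block the counts were 22, 3, 4, 3, 1, 42, 2 and 0 in the order of the 8 comparisons, against 16, 1, 4, 1, 0, 42, 3 and 0. The block moved the count by over 1.5 times in Mki67-positive cells between lung and MLN and between medLN and MLN, and from 0 to 1 in IL-4eGFP- cells. It ended the call of Prc1 between the gates and moved no other count by as much. Where a group kept 1 sample, that sample was assumed to vary like the others. The causes of these changes were not tested. Of 1032 alternative values of single genes, 885 kept their direction and side of the threshold, 57 fell short of it, 32 newly passed it, 55 moved and 3 reversed. Of 129 alternative values of shares and counts, 87 stayed within the limits set for them, 38 moved and 4 reversed. For shares between lung and MLN and between medLN and MLN, no permutation p could fall below 0.05. Such alternatives could only stay or reverse, whatever the size of the difference.

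The 31 to 52 Mki67-positive cells of each IL-4eGFP- sample limit the precision of the gate comparison within these cells.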
